A study of Danio rerio with 8 samples.

Results

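T-box genes encode transcription factors that bind DNA through a shared domain, the T-box, and act as repressors, activators or both during embryonic patterning. Tbx2 and Tbx3 are known mainly as repressors. In zebrafish, tbx2b is needed for the parapineal organ, the left-sided partner of the pineal organ, and in the retina for ultraviolet cones. Described here are 10 T-box genes around tbx2b (tbx2b, tbx2a, tbx1, tbx3a, tbx5a, tbx6, tbx15, tbx16, tbx18 and tbx20), of 32433 genes in the authors' deposited table. They were chosen by name: 9 were matched by their symbol. The remaining one, tbx3a, was taken from the row named tbx3, which the RefSeq gene table (assembly GRCz12tu) lists as an older symbol of tbx3a. They are set beside 14 other T-box genes of the table.

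The tbx2b knockdown group holds 4 libraries from embryos that received a splice morpholino against tbx2b, an antisense oligonucleotide that interferes with splicing, 2 libraries at 5 ng and 2 at 6 ng. The wild-type group holds 4 libraries from embryos that were not injected, so loss of Tbx2b and the injection itself cannot be told apart. All embryos carried the transgene Tg(flhBAC:kaede)vu376, which expresses the fluorescent protein Kaede under regulatory sequence of the pineal gene flh, and Kaede-positive cells were sorted from heads at 24 to 26 hours post-fertilization. Per the labels each library has a technical replicate, so the 8 libraries form 4 pairs and a group rests on 2 RNA samples. The knockdown pairs differ in dose, which cannot be told apart from the RNA sample. The authors' deposited table gives 1 FPKM value per gene and group (fragments scaled by transcript length and by mapped fragments), so each value below is a group value with no spread between libraries, and the depth is unknown. The words rose and fell are kept for genes called by the authors' Cuffdiff test. Of 18954 tested genes it called 83, or 0.438%, with 20 (0.106%) higher in the knockdown and 63 (0.332%) lower.

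None of the 10 T-box genes was called, against the background of 0.438% of tested genes, and none had a q under 0.1, against 0.659%. None had an unadjusted p under 0.05 either, against 5.53% of tested genes. With 10 genes, counts of 0 are near the background in each case. In the authors' deposited table the smallest p of the 10 was 0.0685, for tbx16, and its q was 0.994. Of the 10 genes 6 had the higher value in the knockdown and 4 had the higher value in wild-type. Their median log2 fold change, knockdown over wild-type, was 0.05, against -0.03 over 18800 tested genes above 0 in both groups. The genes fell into a group expressed at 1 FPKM or more and a group near or under it, and these are described in turn.

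The targeted gene tbx2b (ENSDARG00000006120, Zv9 chromosome 15, 26713281 to 26720228) was the most abundant of the 10. It was at 18.3 FPKM in knockdown cells and 17.4 FPKM in wild-type cells. This is a 1.05-fold difference (log2 0.07). The authors' deposited table gives it a p of 0.766. Its level exceeded that of 76.2% of tested genes in the knockdown and of 75.1% in wild-type. The deposited value is 1 per gene and group and does not separate normally spliced from misspliced transcripts, so it does not check the knockdown. How fragments of misspliced transcripts were counted is not stated in the sources at hand. Among the 500 tested genes nearest to tbx2b in level, the smallest absolute log2 fold change with an unadjusted p under 0.05 was 0.48, and the 1 gene called had 2.01. A difference as small as that of tbx2b therefore lay below the sizes that the deposited test picked out at this level.

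The paralog tbx2a (ENSDARG00000018025, chromosome 5, 57916065 to 57923009), which acts with tbx2b in the atrioventricular canal of the zebrafish heart, was the next most abundant of the 10. Its value was 8.43 FPKM in the knockdown and 8.16 FPKM in wild-type. On the log2 scale the difference was 0.05, and the authors' deposited table lists a p of 0.862. Among the 500 genes nearest in level, 3 were called, the smallest with an absolute log2 fold change of 1.18. FPKM is per length, so the paralogs' levels can be set side by side: tbx2b was at 2.18 times the level of tbx2a in the knockdown and at 2.13 times in wild-type. Of the summed FPKM of both paralogs, tbx2b made up 68.5% in the knockdown and 68.1% in wild-type. The paralog thus had no higher share in the knockdown, and with 1 value per group the difference between these shares could not be tested. How the authors' counting treated reads that fit both paralogs is not stated in the sources at hand.

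The row named tbx3 (ENSDARG00000002216, chromosome 5, 75416714 to 75424283), the closest relative of the tbx2 genes in the family, encodes a repressor whose human counterpart is mutated in ulnar-mammary syndrome. It was at 6.56 FPKM in the knockdown and 5.68 FPKM in wild-type, a log2 difference of 0.21. The p in the authors' deposited table was 0.449. The level of tbx2b was 2.79 times that of tbx3 in the knockdown and 3.06 times in wild-type. Together, the tbx2b, tbx2a and tbx3 rows held the first 3 places among the 10 genes in both groups.

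The remaining genes above 1 FPKM in both groups belong to the Tbx1 subfamily. Tbx1 (ENSDARG00000031891, chromosome 5, 16906409 to 16919398), which zebrafish need for the pharyngeal arches and the ear, was at 3.88 FPKM in the knockdown and 3.31 FPKM in wild-type. This was the largest log2 difference among the 6 genes above 1 FPKM, 0.23 (p of 0.51 in the authors' deposited table). None of the 500 genes nearest to tbx1 in level was called. Tbx18 (ENSDARG00000036930, chromosome 23, 31346263 to 31356950), known from mouse somites and epicardium, was at 3.04 FPKM in the knockdown and 2.93 FPKM in wild-type (log2 0.06). Tbx15 (ENSDARG00000002582, chromosome 9, 22068232 to 22101316), which patterns skeleton and coat colour in the mouse, was at 2.11 FPKM in the knockdown and 2.15 FPKM in wild-type (log2 -0.03, p of 0.94 in the authors' deposited table). It was the only one of these 6 genes with the lower value in the knockdown, and rescaled to TPM, which sets the groups to a common FPKM sum, its difference turned to 0.08. Over the 6 genes log2 fold changes ran from -0.03 to 0.23, with 5 of 6 above 0. All 6 lay under the smallest difference that reached an unadjusted p of 0.05 among the genes nearest in level, which ran from 0.48 beside tbx2b to 0.64 beside tbx15.

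**Figure D1:**
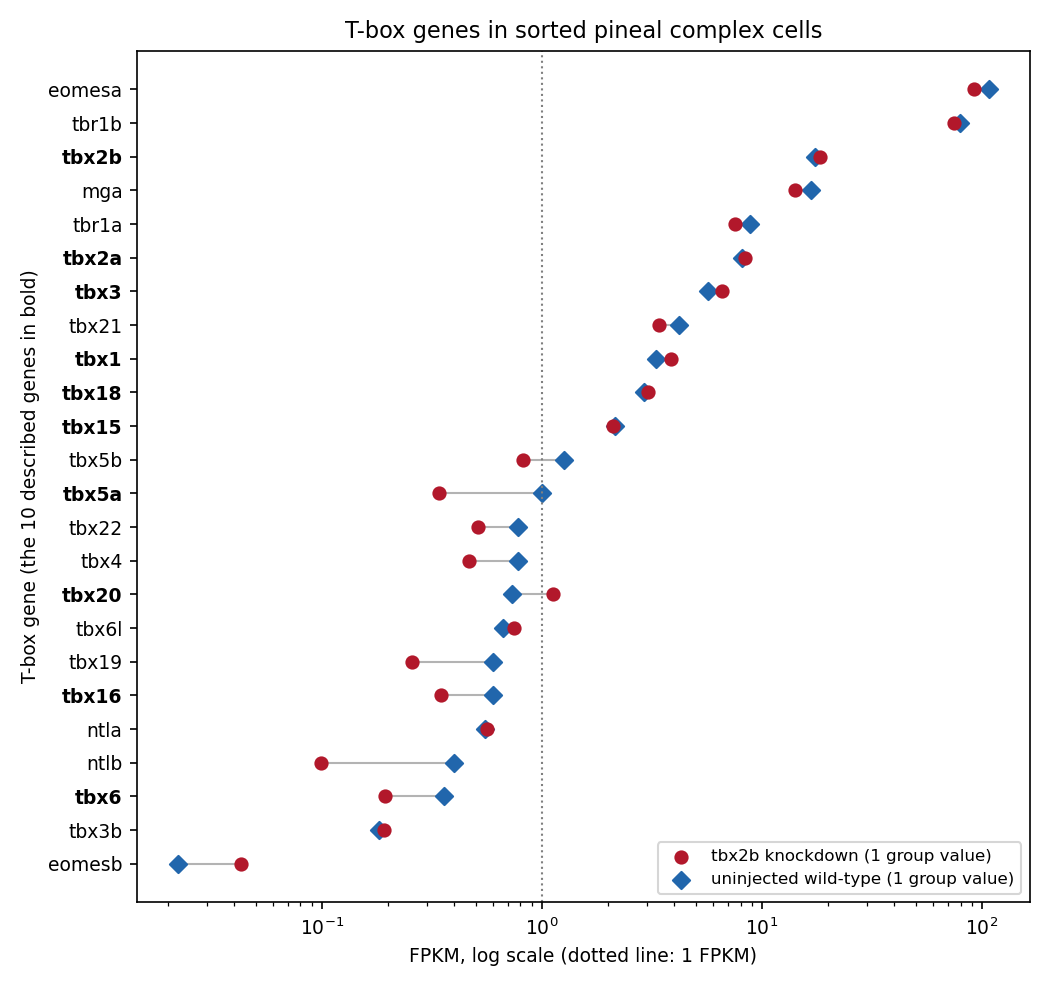
FPKM on a log axis for each of the 24 T-box genes of the table, with tbx2b knockdown as circles and wild-type as diamonds, 1 group value each and no error bars. The 10 described genes are in bold. Circles and diamonds nearly coincide for tbx2b, tbx2a, tbx18 and tbx15. They lie farthest apart for ntlb and tbx5a, both at low FPKM.

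The 4 genes under 1 FPKM in at least 1 group had the larger differences, from -1.56 to 0.62 on the log2 scale, and 3 of these 4 had the lower value in the knockdown. The lower of a gene's 2 values places it here, so a larger difference can itself bring a gene into this set. This holds for tbx5a and tbx20, which were under 1 FPKM in 1 group only. Tbx5a (ENSDARG00000024894, chromosome 5, 75451437 to 75476894), which zebrafish need for the heart and the pectoral fin, was at 0.34 FPKM in the knockdown and 1.00 FPKM in wild-type. The value was thus 2.95-fold lower in the knockdown (log2 -1.56), the largest difference of the 10, and was not called (p of 0.106 and q of 0.999 in the authors' deposited table). With a pseudocount of 1 FPKM the log2 difference was -0.58. Among the 500 genes nearest to tbx5a in level, 35 had an unadjusted p under 0.05, the smallest of these with an absolute log2 fold change of 0.90, and the 1 gene called had 2.08. The difference of tbx5a was therefore larger than some that reached an unadjusted p of 0.05 at its level, while its own p did not.

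The T-box genes of paraxial mesoderm, the tissue that forms somites and trunk muscle, were both under 1 FPKM in each group. Tbx16 (ENSDARG00000007329, chromosome 8, 54012018 to 54031716), the gene of the spadetail mutant, directs mesoderm cells into the trunk. It was at 0.347 FPKM in the knockdown and 0.599 FPKM in wild-type, a 1.73-fold lower value in the knockdown (log2 -0.79, p of 0.0685 in the authors' deposited table). Tbx6 (ENSDARG00000011785, chromosome 12, 4593056 to 4603583) is needed for somite boundaries in zebrafish. This gene carries the older name tbx24 in the RefSeq gene table, where the older name tbx6 belongs to tbx16l, which stands in the file as tbx6l. Tbx6 was at 0.194 FPKM in the knockdown and 0.358 FPKM in wild-type (log2 -0.88, p of 0.0918 in the authors' deposited table), the lowest value of the 10 in each group. On log2(FPKM + 1) the differences of tbx16 and tbx6 were -0.25 and -0.19. Only 1.26% of tested genes in the knockdown, and 2.48% in wild-type, were lower than tbx6.

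Tbx20 (ENSDARG00000005150, chromosome 16, 45276185 to 45294903), a regulator of heart muscle development, was the one gene of these 4 with the higher value in the knockdown. It was at 1.13 FPKM in the knockdown and 0.736 FPKM in wild-type, 1.53-fold higher in the knockdown. The log2 difference was 0.62 (p of 0.166 in the authors' deposited table). Among the 500 genes nearest in level, 41 had an unadjusted p under 0.05, from an absolute log2 fold change of 0.70 upward, so tbx20 lay just under that size. The order of the 10 genes by level was the same in both groups for the first 6 places. Below these, the order was tbx20, tbx16, tbx5a and tbx6 in the knockdown and tbx5a, tbx20, tbx16 and tbx6 in wild-type. In the knockdown tbx16 and tbx5a were nearly level. No spread is at hand to separate neighbours in either order.

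**Figure D2:**
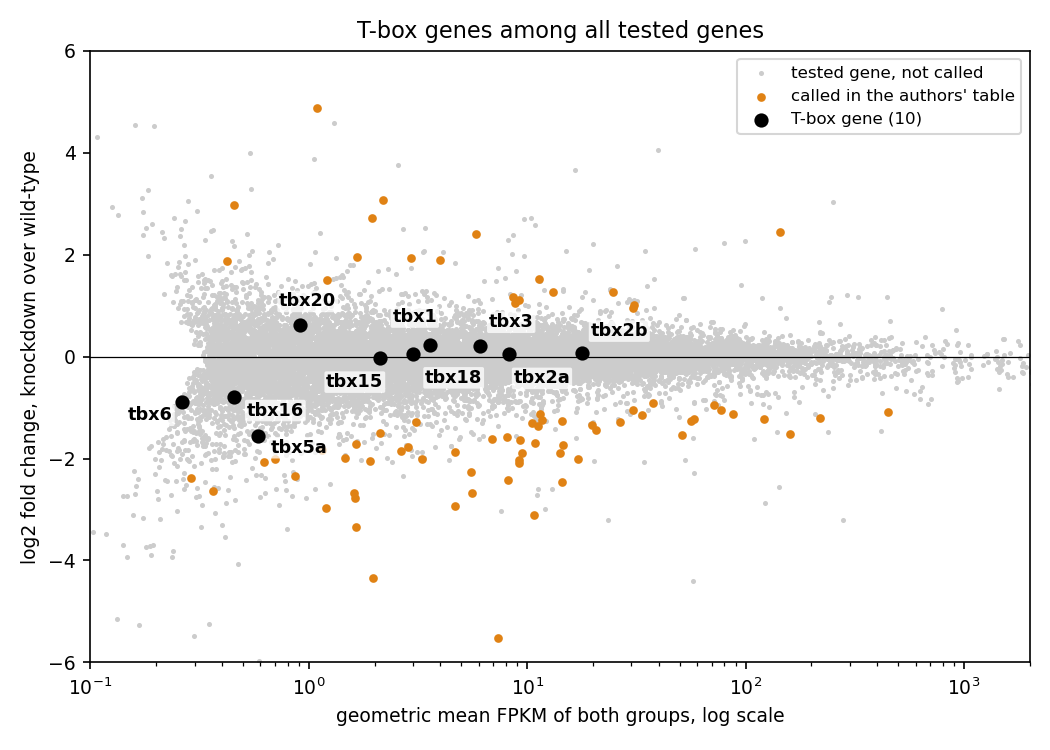
Log2 fold change, knockdown over wild-type, against the geometric mean FPKM of both groups on a log axis, for tested genes above 0 in both groups (grey), genes called in the authors' table (orange) and the 10 T-box genes (black, labelled). The axes leave out 113 tested genes. The T-box genes above 1 FPKM lie close to 0, and tbx5a, tbx6 and tbx16 lie below 0 where the grey points fan out.

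**Figure D3:**
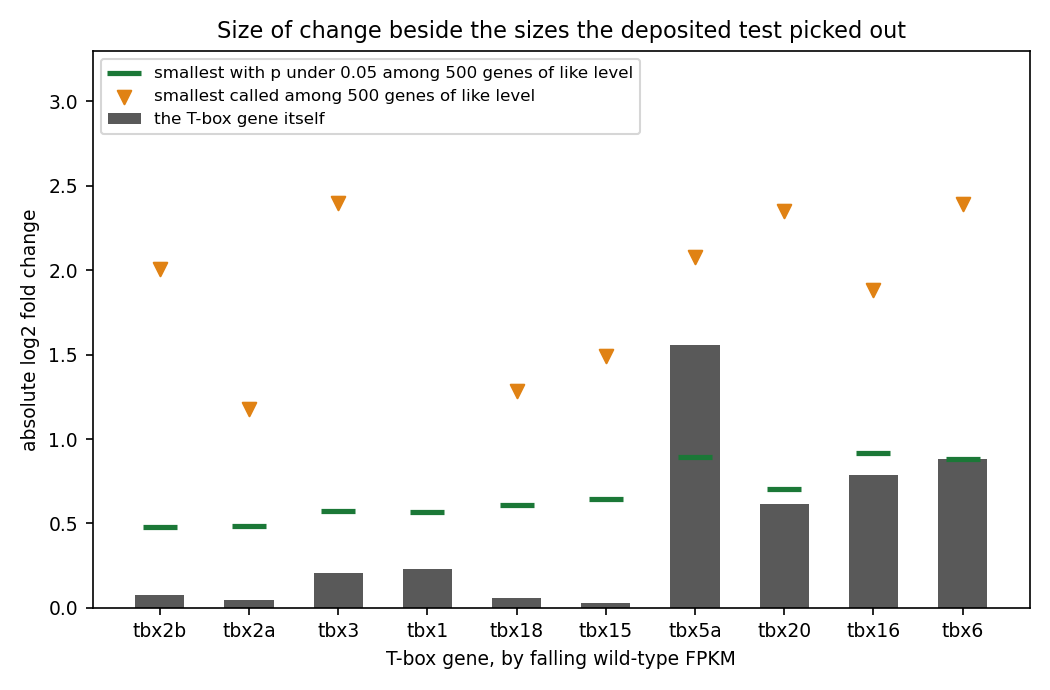
Bars give the absolute log2 fold change of each of the 10 T-box genes, ordered by wild-type FPKM. Green dashes give the smallest absolute log2 fold change with an unadjusted p under 0.05, and triangles the smallest called, among the 500 tested genes nearest in level. Tbx1 has no triangle, since none of its 500 was called. The bar of tbx5a passes its dash, and that of tbx6 ends at its dash.

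Larger differences at low values were found across the table too, so the split among the T-box genes was read against it. Among the 500 tested genes nearest in level, the median absolute log2 fold change was 0.88 beside tbx6 and 0.43 beside tbx16. It was 0.39 beside tbx5a and 0.37 beside tbx20. Beside the 6 genes above 1 FPKM it ran from 0.16 at tbx2a to 0.24 at tbx15. Direction was read from all tested genes. Of 3691 tested genes under 1 FPKM in a group and above 0 in both, 58.2% were lower in the knockdown and the median log2 fold change was -0.15. At 1 FPKM or more in each group there were 15109 tested genes, of which 53.2% were lower in the knockdown, and their median was -0.02. Among the tested T-box genes of the whole family, 8 of 11 under 1 FPKM in a group were lower in the knockdown, with a median of -0.73, and 6 of 11 at 1 FPKM or more were lower. The 11 low T-box genes include the 4 low genes among the 10, and tbx19, which was added after its values were seen. The family counts are therefore no separate background for these 4. With 1 value per group the 4 low genes cannot be set apart from the background of all tested genes.

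None of the 14 other T-box genes of the table was called, against 0.438% of tested genes, and none had an unadjusted p under 0.05, against 5.53%. The authors tested 12 of them, and with so few genes counts of 0 are near the background. Of these 12, 10 were lower in the knockdown and 2 were higher, while 54.1% of all tested genes were lower. The 10 include tbx19, which was added after its values were seen. The median log2 fold change of the 12 was -0.27. The highest levels of the family were those of eomesa, at 92.0 FPKM in the knockdown and 108 FPKM in wild-type, and tbr1b, at 74.6 FPKM in the knockdown and 79.4 FPKM in wild-type. In the mouse the counterparts of both mark neurons and progenitors of the forebrain. Foxg1a, a gene of the telencephalon, was at 54.5 FPKM in the knockdown and 60.3 FPKM in wild-type, and its part in these values was not tested. Tbx2b was the third most abundant gene of the family in both groups. It made up 7.65% of its summed FPKM in the knockdown and 6.57% in wild-type. That sum was 239.7 FPKM in the knockdown and 265 FPKM in wild-type, and eomesa alone made up 38.4% of it in the knockdown and 40.8% in wild-type. Within the 10 genes the share of tbx2b was 41.3% in the knockdown and 41.1% in wild-type. The gene next to tbx2b in level was mga, which encodes a partner of the protein Max, at 14.2 FPKM in the knockdown and 16.8 FPKM in wild-type. Its row has the same locus as another one, and reads of the overlapping gene can enter its value.

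Within the Tbx2 subfamily the differences did not share a direction. Of its 6 tested genes 3 were higher in the knockdown (tbx2b, tbx2a and tbx3) and 3 were lower (tbx5a, tbx5b and tbx4). Its summed level was 35.1 FPKM in the knockdown and 34.5 FPKM in wild-type, of which tbx2b made up 52.2% in the knockdown and 50.5% in wild-type. Tbx5b, the paralog of tbx5a, was at 0.824 FPKM in the knockdown and 1.27 FPKM in wild-type (log2 -0.62). Of the summed FPKM of both tbx5 paralogs, tbx5a made up 29.2% in the knockdown and 44.2% in wild-type. Tbx4, a gene of the pelvic fin and hindlimb, was at 0.469 FPKM in the knockdown and 0.776 FPKM in wild-type (log2 -0.73). The row matched by identifier to tbx3b, at 0.191 FPKM in the knockdown and 0.182 FPKM in wild-type, was not tested.

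The remaining members of the Tbx1 and Tbx6 subfamilies were low apart from mga. Tbx22, which acts in palate formation in mammals, was at 0.515 FPKM in the knockdown and 0.782 FPKM in wild-type. Tbx6l was at 0.747 FPKM in the knockdown and 0.665 FPKM in wild-type, so it was higher in the knockdown while tbx6 and tbx16 of the same subfamily were lower. The Brachyury genes of notochord and tail mesoderm were low as well. Ntla was at 0.564 FPKM in the knockdown and 0.55 FPKM in wild-type. Ntlb was at 0.0991 FPKM in the knockdown and 0.397 FPKM in wild-type, 4.01-fold lower in the knockdown (p of 0.079 in the authors' deposited table), and its row also has the locus of another gene. Tbx19, a regulator of pituitary corticotroph cells that was added to the family list after its values were seen, was at 0.258 FPKM in the knockdown and 0.602 FPKM in wild-type (p of 0.0583 in the authors' deposited table). In the Tbr1 subfamily all 4 tested genes were lower in the knockdown, as were 54.1% of all tested genes. Among the 4 were tbr1a, at 7.53 FPKM in the knockdown and 8.85 FPKM in wild-type, and the T cell regulator tbx21, at 3.40 FPKM in the knockdown and 4.19 FPKM in wild-type. Rescaled to TPM, the log2 difference of tbr1b turned from -0.09 to 0.01, and those of eomesa, tbr1a and tbx21 stayed below 0. Eomesb, at 0.0431 FPKM in the knockdown and 0.0221 FPKM in wild-type, was not tested.

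Some T-box genes are neighbours on their chromosome, and the values of neighbours are set side by side here. On Zv9 chromosome 15, tbx4 begins 16.2 kb after the end of tbx2b, and tbx2b was at 39.1 times the level of tbx4 in the knockdown and 22.4 times in wild-type. The row before tbx2b, bcas3, was at 4.38 FPKM in both groups. That locus also holds BX005052.1, at 0.00664 FPKM in the knockdown and 0.0297 FPKM in wild-type and not tested, and the row after tbx4 is a 5S_rRNA row listed at 0 in both groups. On chromosome 5, tbx3 and tbx5a lie 27.2 kb apart, and tbx3 was at 19.3 times the level of tbx5a in the knockdown and 5.67 times in wild-type. Tbx2a stands without a T-box gene within 200 kb. The rows on either side of it were acaca, at 2.23 FPKM in the knockdown and 3.07 FPKM in wild-type, aatf, at 29.7 FPKM in the knockdown and 26.9 FPKM in wild-type, ppm1db, at 8.65 FPKM in the knockdown and 7.58 FPKM in wild-type, and C5H2orf42, at 1.72 FPKM in the knockdown and 2.23 FPKM in wild-type. None of these neighbours was called, and none of the 10 T-box rows shares its locus with another row.

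The sorted cells and the tissues in which the 10 genes are known to act were read from gene lists. These lists were written with earlier results of these data known, so the counts called in them are descriptive only. With 0.438% of all tested genes called, a count of 0 in lists of this size is near the background. In a bulk sample, fewer cells of a type and less RNA per cell cannot be told apart. Of 21 tested pineal and parapineal genes 6 fell, against 0.332% of tested genes, and none rose (rcv1, saga, gngt1, sagb, otx5 and gngt2a), and the summed level of the list was 440.2 FPKM in the knockdown and 621 FPKM in wild-type. The median log2 fold change of this list was -0.44, while tbx2b was at 0.07. Asmt was listed at 0 in both groups, and exorh was not matched.

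Of 15 tested genes that act upstream of tbx2 genes or beside them in the pineal anlage none was called. The lowest p values of this list in the authors' deposited table were those of the ligand bmp7a, at 1.30 FPKM in the knockdown and 3.74 FPKM in wild-type (q of 0.0824), flh, at 129 FPKM in the knockdown and 238 FPKM in wild-type (q of 0.0986), and the ligand bmp2a, at 1.03 FPKM in the knockdown and 1.81 FPKM in wild-type (q of 0.999). Of 12 tested genes reported or proposed as targets of Tbx2 or Tbx3 in mammals, 1 fell, against 0.332% of tested genes. It was the pigment gene tyrp1b, at 3.65 FPKM in the knockdown and 31.6 FPKM in wild-type. Whether Tbx2b acts on tyrp1b in these cells was not tested. The next lowest p values were those of ndrg1b, at 0.575 FPKM in the knockdown and 1.02 FPKM in wild-type, and the connexin gene cx45.6 (gja5a in RefSeq), at 0.349 FPKM in the knockdown and 0.181 FPKM in wild-type. The median of the target list was -0.05, against -0.03 over all tested genes.

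Called heart genes, read beside tbx20, tbx5a and tbx2a, were all higher in the knockdown. Of 11 tested genes 4 rose and none fell, against a background of 0.106% of tested genes called higher: myl7 rose to 5.02 FPKM in the knockdown, against 0.758 FPKM in wild-type, cmlc1 to 6.37 FPKM, against 0.758 FPKM in wild-type, vmhc to 1.28 FPKM, against 0.163 FPKM in wild-type, and tnnt2a to 3.25 FPKM, against 0.84 FPKM in wild-type. All 4 encode proteins of the contractile apparatus. The list summed to 41.5 FPKM in the knockdown and 23.1 FPKM in wild-type, and gata6 was listed at 0 in both groups. Tbx20 was higher in the knockdown by a log2 of 0.62, tbx5a was lower and tbx2a differed by a log2 of 0.05, and none of these was called. The part of heart cells in the values of the T-box genes was not tested.

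Paraxial mesoderm genes, read beside tbx16 and tbx6, had no call among 15 tested rows and a median of -0.17. Of these rows 2 are named wnt8a and have the same locus, and both had the higher value in the knockdown. The summed level of the list was 191 FPKM in the knockdown and 221 FPKM in wild-type, with mespab listed at 0 in both groups. The lowest p values were those of foxc1b, at 25.1 FPKM in the knockdown and 35.9 FPKM in wild-type, par1, the older symbol of tcf15, at 1.68 FPKM in the knockdown and 0.913 FPKM in wild-type, and foxc1a, at 17.0 FPKM in the knockdown and 21.2 FPKM in wild-type. The defining gene msgn1 was at 0.698 FPKM in the knockdown and 0.553 FPKM in wild-type. Both msgn1 and par1 had the higher value in the knockdown, while 9 of the 15 tested rows had the lower value, like tbx16 and tbx6. The part of paraxial mesoderm cells in the values of tbx16 and tbx6 was not tested. Pharyngeal arch genes, read beside tbx1, had no call among 12 tested and a median of -0.11, with the lowest p values at dlx3b (26.6 FPKM in the knockdown and 17.4 FPKM in wild-type), foxd1 (30.9 FPKM in the knockdown and 22.3 FPKM in wild-type) and gcm2 (0.77 FPKM in the knockdown and 0.391 FPKM in wild-type).

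Eye and ear genes, the other settings of tbx2b, tbx5a and tbx1, gave 1 call. None of 18 tested eye genes was called, with a median of -0.11 and low p values at rx1 (6.82 FPKM in the knockdown and 12.5 FPKM in wild-type) and aldh1a2 (4.04 FPKM in the knockdown and 6.70 FPKM in wild-type). Of 13 tested otic vesicle genes 1 fell, against 0.332% of tested genes. It was the otolith matrix gene otomp, at 0.427 FPKM in the knockdown and 3.35 FPKM in wild-type. The next lowest p values there were those of pax5, at 6.31 FPKM in the knockdown and 3.99 FPKM in wild-type, and pax2b, at 2.32 FPKM in the knockdown and 1.37 FPKM in wild-type. Beside these lists, the log2 difference between the groups was 0.07 for tbx2b, 0.23 for tbx1 and -1.56 for tbx5a. Vmhc, pax5 and aldh1a2 share their locus with other rows, so reads of overlapping genes may be in their values.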

How the data were processed

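RNA of sorted pineal complex cells was sequenced in 8 libraries. The submitters' processing notes name Trimmomatic 0.32, FastQC 0.10.0, TopHat2, Bowtie2, Cuffdiff and CASAVA 1.8.2, and build Zv9. Settings, the annotation and how technical replicates entered are not stated in the sources at hand. Per the file headers, the deposited values are 1 FPKM per gene and group, a log2 fold change of knockdown over wild-type, and the authors' p-value and q-value. The deposited log2 fold change was checked against the FPKM values: 3 tested rows, none a T-box gene, differed by over 0.001. Depth is unknown, so no interval is given.

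The members and gene lists were chosen with earlier results of these data known, and tbx19 was added after its values were seen. All 10 members and all T-box genes that were tested are named. Of the 8 other gene lists, every called gene and the 3 tested genes with the lowest p are named, except 1 gene that is not reported here though its list counts include it, with foxg1a, msgn1, asmt, gata6 and mespab chosen after their values were seen. For each member, the 500 tested genes nearest in mean log2 FPKM were read for the sizes of difference the authors called. This statistic was tested on simulated data of 18800 genes and recovered 50 of 50 points checked. That checks how neighbours were found and counted, and not which sizes the authors' test can call. With 1 value per group no test across libraries, and no likeness of patterns over samples, could be computed. Scripts used Python 3.11.15, pandas 2.3.3, numpy 2.4.6 and matplotlib 3.10.9. Alternatives were pseudocounts of 0.1 and 1 FPKM, rescaling to TPM, a threshold of 1 FPKM and other thresholds on p and q.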

Additional observations from a re-analysis of the deposited data

How the results depend on the processing

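No paired analysis was possible because the deposited table gives 1 value per gene and group, with no libraries to pair. Fits without a library, by RNA sample or by dose were not run, as they too need values per library. The count of called T-box genes was 0 of the 10 at a deposited q under 0.1 and at an unadjusted p under 0.05, and 0 over all 24 T-box genes. It was 0 at a q under 0.01 too, but the smallest q of any tested gene was 0.01755, so no gene could pass there. The median log2 fold change of the 10 genes was 0.05 as deposited, 0.042 on log2(FPKM + 1), 0.16 rescaled to TPM, 0.066 over the 6 genes at 1 FPKM or more, and -0.23 over all T-box genes; rescaling adds 0.106 to every log2 fold change. Of the 10 single genes, tbx15 alone changed direction, to 0.079 rescaled to TPM. The share of tbx2b in both tbx2 paralogs was 68.4% in the knockdown and 67.9% in wild-type with 0.1 FPKM added, and 67.2% in the knockdown and 66.8% in wild-type with 1 FPKM added. Its share of T-box FPKM was 7.83% in the knockdown and 6.78% in wild-type over genes at 1 FPKM or more, and 41.3% in the knockdown and 41.1% in wild-type over the 10 genes. With 200 in place of 500 nearest genes, the smallest called difference beside tbx2a, tbx16 and tbx18 was 2.42, 2.97 and 1.93, and none was called beside tbx2b, tbx3, tbx5a and tbx20. At a q under 0.1, 2 of 15 tested genes of the upstream list passed, bmp7a and flh, against 0.659% of tested genes. At that threshold 8 of 21 pineal and parapineal genes passed, flh among them, and 4 of 11 heart genes. In the target list 1 of 12 passed, in the otic vesicle list 1 of 13, and in the remaining lists none. Depth is unknown, so the error of the genes under 1 FPKM cannot be given.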
